A study of Sus scrofa with 9 samples.

Results

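miR-21 and miR-128 were the most abundant pig miRNAs after miR-205 in the small RNA libraries of porcine oocytes and 1-cell embryos. They were selected on these same libraries, for their high level in oocytes, so that their order and their levels are given as a description. The members were all names of the deposited miRNA table that begin, after the species prefix, with miR-21 or miR-128. The table held 3 such names on 4 of its 1420 rows, out of 1313 distinct names. These were ssc-miR-21-5p_R+1 and ssc-miR-21-3p_R+1, the products of both arms of the pig miR-21 hairpin, and ssc-miR-128, which carries no arm in its name. All 3 bear the pig prefix (ssc), and the meaning of the suffix R+1 is not given in the sources used here.

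The libraries came from metaphase II (MII) oocytes, which wait at that stage for fertilization, from pronuclear (PN) embryos made by in vitro fertilization, and from purified mature boar sperm, with 3 libraries in each group. All 9 were labelled untreated. Cumulus cells had been stripped from the oocytes by vortexing in hyaluronidase, and the labels do not say whether the libraries of a group came from separate animals or pools. All p-values below therefore measure only the spread between these samples, which may be technical.

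A miRNA guides Argonaute proteins to messenger RNAs that match its seed, the bases near its 5′ end, and lowers their stability or translation. miR-21 is found in most tissues, rises in many tumours and in inflamed tissue, and is known for repressing the tumour suppressor PDCD4, while in the ovary it has been tied to the survival of granulosa cells. miR-128 is best known from the brain, where it restrains neuronal excitability, and its copies lie within host genes. Growing oocytes store RNA for the first cleavages, and the zygotic genome is transcribed only later, so that a PN embryo mostly carries RNA inherited from the gametes.

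In the RefSeq annotation of Sscrofa11.1, the build named in the submitters' processing notes, pig miR-21 is encoded by MIR21 on chromosome 12 from 36065267 to 36065358. No annotated gene of the table contained the whole of this hairpin. The nearest genes lying wholly to either side of it were PTRH2 at 132038 bp and TUBD1 at 14581 bp. A gene overlapping only part of the hairpin was not looked for, so miR-21 is not shown to lie between genes. Pig miR-128 has 2 genes. MIR128-1 lies on chromosome 15 from 16273557 to 16273638, inside the span of R3HDM1 (16230961 to 16414358), and MIR128-2 lies on chromosome 13 from 21038445 to 21038524, inside the span of ARPP21 (20955414 to 21088424). The annotation table gave gene spans without strand or exons, so introns and exons were not assigned. The miRNA table listed ssc-miR-128 on 2 rows with the same counts in 9 of 9 libraries, and the counts of a row were half-integers in 5 libraries while their sum was whole in all 9. Reads of miR-128 had thus been divided evenly between its copies, so that MIR128-1 and MIR128-2 cannot be told apart, and both rows were summed.

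Depth differed by group. Library totals, the sum of all counts in a library, were 289183 to 381674 for MII oocytes, 422630 to 771001 for PN embryos and 1640492 to 2455102 for sperm, and because these ranges did not overlap, depth and group cannot be told apart. Levels are given in CPM, the count divided by the library total and scaled to 1000000. In bulk samples such a share cannot separate fewer cells of a type from less RNA per cell. A comparison of levels between different miRNAs also assumes equal capture of their sequences, which was not tested.

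ssc-miR-21-5p_R+1, the guide arm of miR-21, had 31167, 24189 and 20541 counts in the MII oocyte libraries, or 81659, 80837 and 71031 CPM. In PN embryos it had 34903, 58768 and 64477 counts, or 82585, 84523 and 83628 CPM. In sperm it had 38885, 41305 and 57736 counts, or 23703, 23829 and 23517 CPM. All oocyte and embryo libraries lay far above all sperm libraries, and the lowest PN embryo library lay only just above the highest MII oocyte library. The mean level was 77842 ± 5913 CPM for MII oocytes, 83579 ± 970 CPM for PN embryos and 23683 ± 157 CPM for sperm (SD, n = 3 each). The name ranked second in each oocyte and embryo library, and 12, 13 and 13 in the sperm libraries, so miR-21 was also among the 13 most abundant names of each sperm library.

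ssc-miR-128 had 27745, 19348 and 18767 counts in MII oocytes, or 72693, 64659 and 64897 CPM. In PN embryos its counts were 24920, 41892 and 45367, or 58964, 60251 and 58842 CPM. In sperm its counts were 10018, 11755 and 17039, or 6107, 6781 and 6940 CPM. No PN embryo library reached the lowest MII oocyte library, and the sperm libraries lay far below both. Means were 67416 ± 4571 CPM for MII oocytes, 59352 ± 781 CPM for PN embryos and 6609 ± 443 CPM for sperm (SD, n = 3 each). The rank of miR-128 was the third in every oocyte and embryo library, and 32, 29 and 29 in sperm.

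**Figure D1:**
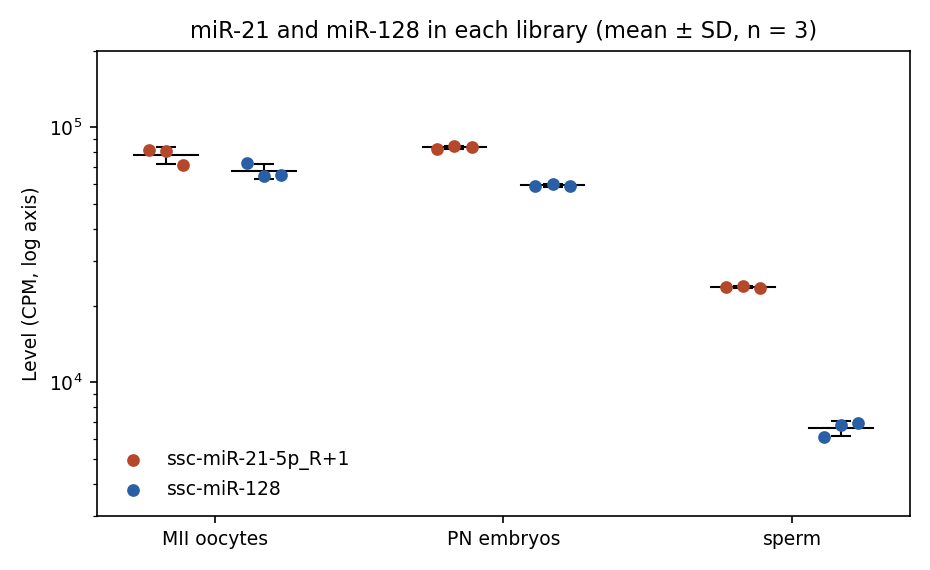
Level of ssc-miR-21-5p_R+1 and ssc-miR-128 in each library, in CPM on a log axis, with the mean ± SD of the 3 libraries of each group. The sperm points lie below all others for both miRNAs, at 23517 to 23829 CPM for miR-21 and 6107 to 6940 CPM for miR-128.

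Counting error added little to these levels. In the first MII oocyte library miR-21 took 8.17% of all counts, with a Wilson 95% interval of 8.08% to 8.25%, and miR-128 in the first sperm library took 0.611%, with an interval of 0.599% to 0.623%. Such intervals, and the limits given for counts of 0, hold for counting error alone, because the libraries had no molecular identifiers to tell PCR copies apart. The spread between libraries was wider in MII oocytes, with a coefficient of variation of 7.60% for miR-21 and 6.78% for miR-128, than in PN embryos, with 1.16% and 1.32%. In sperm it was 0.663% for miR-21 and 6.70% for miR-128.

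The opposite arm was close to the limit of detection. ssc-miR-21-3p_R+1, the passenger product of the miR-21 hairpin, had 12, 0 and 9 counts in the PN embryo libraries, or 28.4, 0 and 11.7 CPM, and 0 counts in every MII oocyte and sperm library. A count of 0 allows up to 3 counts, which equals 1.22 to 1.83 CPM at the depth of sperm, 3.89 to 7.10 CPM at that of PN embryos and 7.86 to 10.4 CPM at that of MII oocytes. No value of the table equalled 1, and of its 4759 values above 0, 268 equalled 5 and 66 were whole numbers below 5. A listed 0 may thus even stand for about 5 reads, though these values do not show a fixed limit. The 3p arm made up 0.0344%, 0% and 0.0140% of the summed miR-21 counts of the PN embryo libraries, against 0% in the other groups. An exact permutation test of that share gave p = 0.4 against either group (two-sided, adjusted p = 0.4 over 7 tests, n = 3 per group), but 3 against 3 libraries cannot go below 0.1, so it could not have shown a difference. The arm did not pass the filter on low counts, so 2 of the 3 members entered the fit across all names. With no such filter it was called lower in sperm than in PN embryos, on 12, 0 and 9 counts against libraries listed at 0.

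Only miR-205 stood above the pair in oocytes and embryos. ssc-miR-205_R+1, an epithelial miRNA, was at 60.5 ± 9.29 CPM in sperm but reached 453730 ± 3642 CPM among PN embryos and 473620 ± 17711 CPM among MII oocytes (SD, n = 3 each). Below the pair came ssc-miR-148a-3p at 27221 ± 1075 CPM and ssc-miR-320_R+1 at 26156 ± 1608 CPM in MII oocytes. The level of miR-128 was 2.33 to 2.57 times that of the next name in each MII oocyte library and 2.38 to 2.50 times in each PN embryo library, so a gap separated the pair from the other names. In sperm the same step was missing, and ssc-miR-30d_R-2 led each library at 101670 to 103180 CPM.

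**Figure D2:**
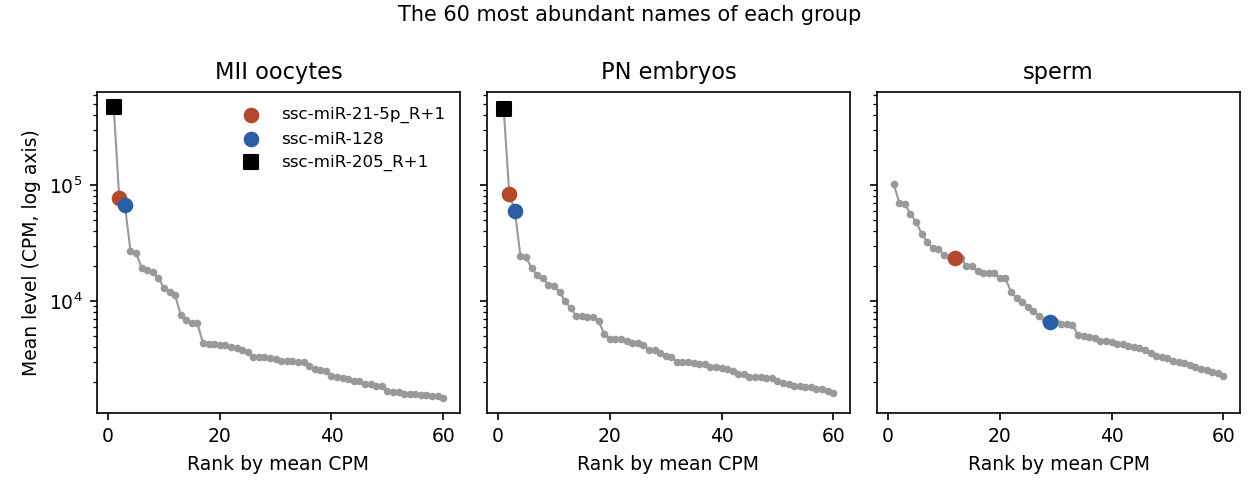
Mean level in CPM (log axis) of the 60 most abundant names of each group against their rank, with miR-21, miR-128 and miR-205 marked. The pair holds ranks 2 and 3 in MII oocytes and PN embryos and ranks 12 and 29 in sperm, where miR-205 is at rank 232 and not drawn.

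Together miR-21 and miR-128 took 15.4%, 14.6% and 13.6% of the counts of the MII oocyte libraries and 14.2%, 14.5% and 14.2% of those of PN embryos, against 2.98%, 3.06% and 3.05% in sperm. With miR-205 included, the 3 names took 61.2% to 62.9% of each MII oocyte library and 59.4% to 59.9% of each PN embryo library. A name of that size pushes down every other share in the same library. With miR-205 left out of the total, the pair took 27.6 ± 0.844% in MII oocytes, 26.2 ± 0.206% in PN embryos and 3.03 ± 0.0425% in sperm (SD, n = 3 each).

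Between MII oocytes and PN embryos, miR-21 and miR-128 moved little. The mean CPM of PN embryos was 1.07 times that of MII oocytes for miR-21 and 0.880 times for miR-128. Without miR-205 in the total these ratios were 1.04 and 0.849, and the libraries of miR-21 then overlapped, at 140060 to 152530 CPM (MII oocytes) and 152350 to 154080 CPM (PN embryos). In the fit across all 587 names tested, the log2 fold change of PN embryos against MII oocytes was 0.03 ± 0.05 (SE) for miR-21 and -0.25 ± 0.06 (SE) for miR-128, beside a median of 0.08 over all names. Of the tested names, 274 had a lower fold change than miR-21 and 119 a lower fold change than miR-128. A name was called when its Benjamini-Hochberg q was under 0.05 and it changed by 1 or more on the log2 scale. Neither miRNA was called between PN embryos and MII oocytes, a rule that 12.9% of all tested names passed, and 1 of them, miR-128, had a q under 0.05 with no fold required, as had 25.2% of all tested names. Nothing is read from these counts, since both names were selected on their level. The sign for miR-21 turned when the third MII oocyte library was left out (-0.03) or when counts were thinned to the smallest library total (-0.01), and without the first MII oocyte library the value was 0.20 for miR-21 and -0.07 for miR-128.

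Against sperm both miRNAs differed by a large factor, and miR-128 by more than miR-21. Mean CPM in MII oocytes was 3.29 times the sperm level for miR-21 and 10.2 times for miR-128, and in PN embryos 3.53 and 8.98 times. With miR-205 left out of the totals the factors grew to 6.24 and 19.4 for MII oocytes and to 6.46 and 16.4 for PN embryos, since the total then no longer held the large share of miR-205. On the fitted log2 scale, sperm against MII oocytes was -1.66 ± 0.05 (SE) for miR-21 and -3.29 ± 0.07 (SE) for miR-128, and sperm against PN embryos was -1.69 ± 0.05 and -3.04 ± 0.07. Leaving miR-205 out before this fit, whose TMM scaling is not set by the total alone, moved the values the other way, to -1.47 and -3.10 against MII oocytes and -1.49 and -2.83 against PN embryos. The filter on low counts was then applied anew and 536 names were tested, so the scaling and the set of names changed together. The size of the factor thus depended on the scaling, and its direction did not in the settings tried. Both contrasts with sperm moved most of the table. In sperm, 40.7% of tested names were called lower than in MII oocytes and 47.4% lower than in PN embryos, and 83.0% and 86.2% were called in either direction. Both tested members were on the lower side in each contrast, which their choice as abundant oocyte names favoured, and nothing is read from that count. The median log2 fold change over all names was 0 for sperm against MII oocytes and -0.52 for sperm against PN embryos. Lower fold changes than that of miR-128 were found for 187 of 587 names in the former and 209 in the latter. For miR-21 these numbers were 222 and 263. The quartiles of all names were -5.50 and 4.95 against MII oocytes and -5.83 and 3.44 against PN embryos. Both miRNAs lay between the quartiles in each contrast.

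**Figure D3:**
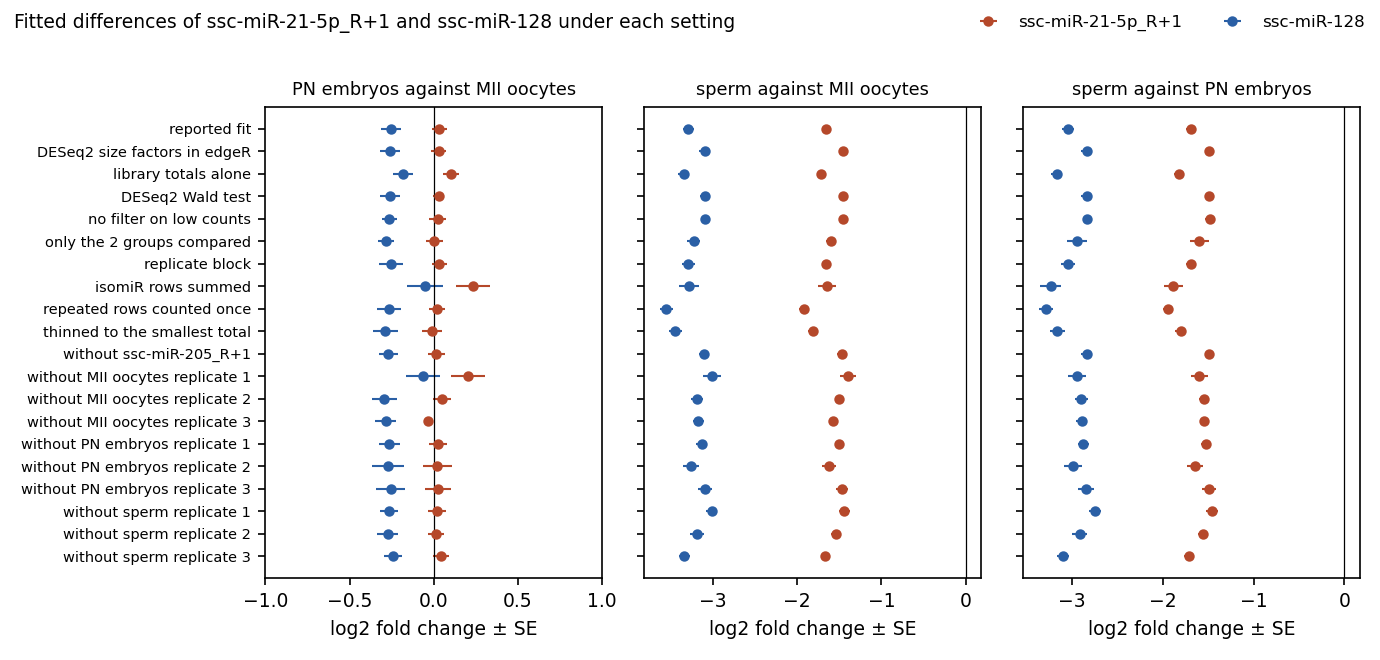
Fitted log2 fold change ± SE of miR-21 and miR-128 in the 3 contrasts, from the reported fit and each of the 19 alternative settings, with horizontal axes of different range. Against sperm both miRNAs stay below 0 throughout, and between PN embryos and MII oocytes miR-128 lies between -0.29 and -0.05 while miR-21 lies on both sides of 0.

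The balance of miR-21 to miR-128 can be read within each library, where the library total and miR-205 cancel. Summed miR-21 counts were 1.12, 1.25 and 1.09 times the miR-128 counts in the MII oocyte libraries, 1.40, 1.40 and 1.42 times in the PN embryo libraries, and 3.88, 3.51 and 3.39 times in the sperm libraries. miR-21 was the more abundant of the pair in 9 of 9 libraries, and the groups did not overlap, with MII oocytes lowest and sperm highest. On the log2 scale the ratio was 0.21 ± 0.10 in MII oocytes, 0.49 ± 0.01 in PN embryos and 1.84 ± 0.10 in sperm (SD, n = 3 each). PN embryos exceeded MII oocytes by 0.29, sperm exceeded MII oocytes by 1.64, and sperm exceeded PN embryos by 1.35. Each difference had an exact permutation p of 0.1 (two-sided, n = 3 per group), the smallest that 3 against 3 libraries can give, and an adjusted p of 0.233 over 7 tests. These 7 tests included the share of each miR-21 arm. Those shares mirror each other, so the same comparison was counted more than once. The design could therefore not bring any of these differences past a threshold of 0.05, and the ratio rests on the levels by which the names were selected. Counting the repeated miR-128 row once would double each ratio and leave the differences between groups as they are.

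Other miRNAs with a related seed were taken from a list of 5 miRNAs. miR-590-5p is known to share the seed of miR-21-5p, miR-216a-3p and miR-3681-3p that of miR-128, and the seed of miR-27a and miR-27b overlaps that of miR-128 with a shift of a single base. The list was matched by name and not by sequence. The table held 7 names of the list, 2 of miR-27a, 4 of miR-27b and 1 of miR-590, and none of miR-216a or miR-3681. Among those of miR-27b, ssc-miR-27b-5p_R-1 is named for the arm opposite to ssc-miR-27b-3p, so it is not counted on to carry the related seed. Of the 7 names, 3 passed the filter on low counts. In sperm, 2 of the 3 were called higher than in MII oocytes, beside 42.2% of all tested names, and 2 of the 3 higher than in PN embryos, beside 38.8%. The names called were ssc-miR-27a_R-1 and cfa-miR-590, and the latter passed the filter only through its sperm libraries. With 3 names these counts do not stand apart from the table, and 0 of the 3 were called between PN embryos and MII oocytes.

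The name of the miR-21 relative, cfa-miR-590, carries a dog prefix and no arm, so the product it stands for is uncertain. It was listed at 0 in the 3 MII oocyte libraries and had 5, 0 and 0 counts in the PN embryo libraries. In sperm it had 90, 161 and 245 counts, or 54.9, 92.9 and 99.8 CPM. It was thus listed mainly in sperm, where it stood far below miR-21 itself. It passed the filter on low counts only through its sperm libraries, so it had to differ, and its call supports nothing.

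ssc-miR-27a_R-1 was lowest in PN embryos at 194 ± 26.2 CPM, followed by MII oocytes at 280 ± 19.8 CPM and sperm at 1397 ± 114 CPM (SD, n = 3 each). This miRNA, best known as a regulator of fat cell and blood vessel formation, rose in sperm against MII oocytes by 2.37 ± 0.12 on the log2 scale (SE, edgeR quasi-likelihood test, q = 1.66e-08) and against PN embryos by 2.96 ± 0.11 (q = 1.75e-09). ssc-miR-27b-3p, its more abundant relative, had a level of 3764 ± 98.9 CPM in PN embryos, 4194 ± 218 CPM in MII oocytes and 5092 ± 305 CPM in sperm (SD, n = 3 each). Its log2 fold change in sperm was 0.34 ± 0.07 (SE, edgeR q = 9.30e-04) against MII oocytes and 0.57 ± 0.07 (q = 1.77e-05) against PN embryos, below the fold required for a call. Against MII oocytes it had a q of 0.356 when repeated rows were counted once. Both names held half-integer counts in 3 of 9 libraries and had whole sums in all 9, so reads had been divided between them and their separate values are uncertain.

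miR-128 and the miR-27 pair thus had different orders across the 3 groups. The level of miR-128 was 14.6 to 15.3 times that of summed miR-27a and miR-27b in MII oocytes and 14.6 to 15.0 times in PN embryos, and 0.999 to 1.04 times in sperm. The means were 15.0 ± 0.341, 14.9 ± 0.240 and 1.02 ± 0.0205 (SD, n = 3 each). Summed miR-27 was highest in sperm, at 6492 ± 420 CPM, where miR-128 was lowest, and reached 3991 ± 70.3 CPM for PN embryos and 4490 ± 246 CPM for MII oocytes. The sum held all names of miR-27a and miR-27b, with ssc-miR-27b-5p_R-1, the opposite arm, at a mean of 10.8 CPM in PN embryos and 0 in the other groups. The ratio of miR-128 to this sum is given as a description, since miR-128 was selected on its level.

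**Figure D4:**
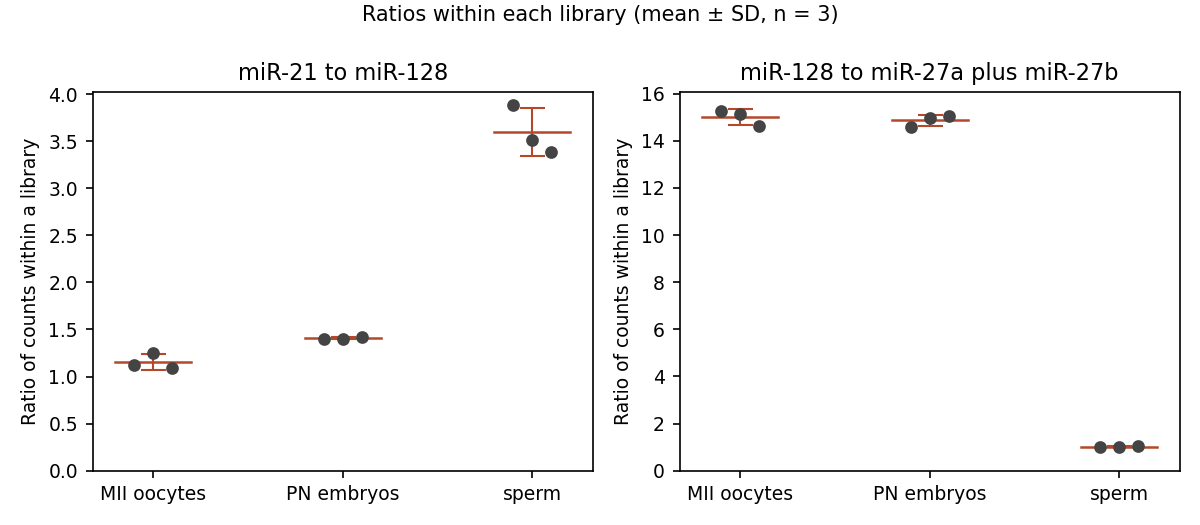
Ratios of counts within each library, with the mean ± SD of 3 libraries per group, for miR-21 to miR-128 (left) and miR-128 to the sum of miR-27a and miR-27b (right), both from 0. The left ratio is highest in sperm, at 3.39 to 3.88, and the right ratio is lowest in sperm, at 0.999 to 1.04.

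Names with a pattern most like that of each miRNA were ranked by the Pearson correlation of log2(CPM + 1) over the 9 libraries, among 537 names with a mean of at least 10 CPM. For miR-21 these were ssc-miR-105-2_R+2, mml-miR-1260b and efu-mir-9226-p3_1ss17GA, all with r of about 1.00. They were far rarer than miR-21, with means of 78.0, 221 and 58.2 CPM (MII oocytes) and 99.96, 394 and 59.7 CPM (PN embryos), and were listed at 0 in sperm. For miR-128 they were cfa-miR-507a_L-2R-3, eca-miR-507a_L+2R-1_1ss16AT and ssc-miR-138_R+2, with r of 0.999 each. The means of these 3 stood in the same order as those of miR-128, with 331, 1917 and 195 CPM (MII oocytes), then 287, 1526 and 175 CPM (PN embryos) and then 5.04, 37.9 and 0 CPM (sperm). Such values were common, since 164 names had an r above 0.95 with miR-21 and 154 with miR-128, and the r between miR-21 and miR-128 was 0.993. The 9 points share 3 groups and 3 ranges of depth, so r mainly restates the contrast with sperm.

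The labels of the groups were checked against cell type markers. Summed sperm and testis germ cell miRNAs (miR-34b, miR-34c and the miR-449 family) were at 151500 to 153740 CPM in sperm, against 2036 to 2099 CPM for MII oocytes and 2250 to 2455 CPM for PN embryos, with 4, 3 and 3 of the 5 listed markers above 0. Of the early embryo and oocyte list, 1 of 6 markers was above 0 in MII oocytes, 3 in PN embryos and 0 in sperm. miR-371 was listed at 0 in sperm and had 1157 ± 84.0 CPM for PN embryos and 1183 ± 98.9 CPM for MII oocytes (SD, n = 3 each). miR-302b and miR-302d were at 0 in MII oocytes and sperm, and at 20.3 ± 13.8 and 3.36 ± 5.81 CPM in PN embryos. miR-302a, miR-302c and miR-367 were at 0 or without a name in each group. In MII oocytes this list thus rested on miR-371 alone.

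Granulosa and cumulus cells are known to contain miR-21, and 5 of 5 of their markers were above 0 in MII oocytes and PN embryos, at a summed 1203 to 1366 CPM and 1420 to 1691 CPM. In sperm 4 of 5 were above 0, at 4338 to 4457 CPM, of which miR-132 gave 3393 CPM, and miR-503 was at 0. Blood cell markers were highest in PN embryos, at 837 to 875 CPM, against 166 to 314 CPM in MII oocytes and 268 to 380 CPM in sperm, with 5, 5 and 6 of 7 above 0. Fibroblast and smooth muscle markers, with 4 of 5 above 0 in each group and no name of miR-214, were at 823 to 1038 CPM (MII oocytes), 492 to 623 CPM (PN embryos) and 93.3 to 113 CPM (sperm), an order shared with miR-128. Each of these sums was far below the level of miR-21 in the same group. In sperm, however, the granulosa and cumulus sum came closer to miR-128, which was at 6107 to 6940 CPM. Such sums do not give the amount of miR-21 or miR-128 in these cell types. Their part in the levels of miR-21 and miR-128 was not tested.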

How the data were processed

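Small RNA was sequenced from 3 libraries each of MII oocytes, PN embryos and sperm. The deposited values were estimated counts per listed small RNA that the authors marked as raw, with reads fitting several loci divided among rows. The aligner, miRNA caller and count filter are not given in the sources used here, and 0 columns of sample values were left unused. Titles gave groups and replicates. The members and all lists below were chosen with earlier results of these data known. The sequences of the miRNAs were not analysed here.

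Identical rows of a repeated name (105 names) were summed, and sums were rounded to whole counts. edgeR 4.0.16 (R 4.3.3) fitted all 9 libraries by group, with TMM, filterByExpr (minimum count of 10), the quasi-likelihood test and Benjamini-Hochberg adjustment over 587 names. Calls required a q under 0.05 and a change of 1 or more on the log2 scale. The leading name of each miRNA entered the fit, but since it was selected on its level its fold changes are given as a description, without p-values, and its calls appear only as counts. Ratios and shares within libraries were compared by exact two-sided permutation tests (scipy 1.17.1). DESeq2 1.42.0 served as an alternative, beside another scaling, filter, set of samples, block, sum over isomiRs, thinning to the smallest total and leaving out each library. The fit was tested on simulated data, built from a single mean profile for all groups with some names altered. A shift as wide as that against sperm was not covered. Named were all members, the seed relatives, neighbours in rank, the 3 most alike names and cell type markers. Replicates differed by more than sampling noise (chi-square per degree of freedom of 2.20 to 12.7). Loci came from the RefSeq table of Sscrofa11.1 and were matched by symbol.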

Additional observations from a re-analysis of the deposited data

How the results depend on the processing

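The direction against sperm was kept by miR-21 and miR-128 in each of the 19 alternatives, at -1.92 to -1.39 (miR-21) and -3.55 to -3.01 (miR-128) on the log2 scale against MII oocytes and at -1.94 to -1.46 and -3.29 to -2.75 against PN embryos. Between PN embryos and MII oocytes miR-128 stayed negative, at -0.29 to -0.05, while miR-21 reversed with counts thinned to the smallest total (-0.00981) and without the third MII oocyte library (-0.0331), and reached 0.20 without the first MII oocyte library and 0.23 with all sequence variants of a miRNA (isomiRs) summed. The cause was not tested. The median of all names moved from 0.08 to 0.24 with isomiRs summed and to 0.27 without the first MII oocyte library, and relative to that median miR-21 ran from -0.09 to 0.02 and miR-128 from -0.37 to -0.26 over the 20 settings. Relative to the median the contrasts with sperm varied more. miR-21 ran from -2.37 to -1.29 against MII oocytes and from -1.45 to -0.31 against PN embryos. For miR-128 the ranges were -4.00 to -2.93 and -2.80 to -1.66. The members called between PN embryos and MII oocytes went from 0 to 1 with no fold threshold, a rule that 25.2% of all tested names passed. The count of 2 against PN embryos rose to 3 in sperm without the filter on low counts, where ssc-miR-21-3p_R+1 entered. The share of all names called without that filter was not computed. Nothing is read from these counts, since the leading names were selected on their level and the 3p arm was close to the limit of detection.

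The labels link samples of the same number by that number alone. Their deviations from group means correlated by -0.04, -0.11 and 0.02 on average in the 3 contrasts. With so few libraries this cannot show whether they shared an animal, pool or batch. With the replicate block the ratio differences stayed at 0.29, 1.64 and 1.35, as they had to with each replicate number present in every group. In the blocked fit 0, 2 and 2 members were called, beside 12.9%, 83.0% and 86.2% of all tested names in the reported fit. The share in the blocked fit was not computed, and nothing is read from these counts. Over their 10 alternatives, single libraries left out included, the ratio differences ran over 0.25 to 0.35, 1.58 to 1.69 and 1.29 to 1.39. Of these alternatives the block, repeated rows counted once and pig names alone could not move the differences. Over up to 19 alternatives recomputed after the data were seen, the call of miR-27a in sperm held in each, whereas miR-27a and miR-27b had a q under 0.05 between PN embryos and MII oocytes in 16 and 13. Depth limits the 3p arm most, since its highest count was 12.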
